A study of Mus musculus with 2 samples.

Results

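The interferon system was examined through 46 genes, of which 42 are interferon-stimulated genes and 4 encode the subunits of the interferon receptors. They were taken by name: a probe set belonged to a gene when the platform annotation gave it that gene symbol, and the probe set with the highest mean log2 intensity stood for the gene. Of 18193 genes with a probe set of their own, 43 were members. Oas1g, Isg15 and Ifi44 had no probe set named for them alone.

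RNA came from spleen cells of tumour-bearing C57BL/6 mice, which had hepatocellular carcinoma, and each of the 2 groups had 1 array. The first sample held Ter119-positive, CD45-negative cells, here called CD45-negative cells. Ter119 marks the surface of erythroid cells, and CD45 that of white cells in general. The second held CD45-positive cells of the same animals, the control. The sources used here do not state if their gate used Ter119. No tumour-free mice, second strain or treatment entered the series, and the age and number of the mice and any pooling are not given in the sources used here. With 1 array per group there are no replicates to measure error from, and no p-value is given.

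Marker genes were checked against the labels. Ptprc, which encodes CD45, stood at 422.7 in CD45-negative and 32147 in CD45-positive cells. All 10 red cell markers with a probe set were at least 4-fold higher in the CD45-negative array, and 50 of 54 white cell markers were at least 4-fold lower. The detection level was an intensity of 101.1, which 95% of the values of 80 olfactory and vomeronasal receptor probe sets did not exceed, and genes above it are called measured. Of all genes, 54.2% were measured in CD45-negative and 56.1% in CD45-positive cells.

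Interferons are secreted proteins that alarm cells to infection. Type I interferons bind the receptor pair IFNAR1 and IFNAR2, and interferon gamma binds IFNGR1 and IFNGR2. The receptors act through JAK kinases and STAT factors, which bind DNA elements such as the interferon-stimulated response element and the gamma-activated site. The genes so induced encode proteins that sense viral RNA, block its translation, degrade it or trap virus particles.

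These elements are written in the promoters of the members, and the stretches below are shown because genes that carry them lay on both sides of the comparison. RefSeq promoter windows of GRCm38.p6, from 250 bases before to 50 after a start, were matched by symbol for 34 of the 46 members. The response element was searched as GAAANNGAAA and, on the other strand, TTTCNNTTTC. It was present in 16 of the 34 genes (47.1%) and in 3.99% of all 27025 genes with windows of the same length. The gamma-activated site was searched as TTCNNNGAA, which reads the same on both strands, and was present in 11 of the 34 (32.4%) and in 9.55% of all genes. Matches of 1 motif may overlap each other. Among the 3 members at least 4-fold higher in the CD45-negative array, the response element was in 1, Oas3. Among the 7 with a window that were at least 4-fold lower, it was in 4, namely Ifit3, Gbp2, Gbp3 and Mndal. Among the 21 measured members with a window that lay within 4-fold, it was in 9 (42.9%). Whether the element goes with direction was not tested. A match is a run of letters and not a known binding site.

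The printed stretches hold the 160 bases before the start. Those of Oas3 and Isg20 overlap the annotated gene by 25 and 28 bases. For Ifit3 and Mndal, where that overlap is more than 30 bases, the printed stretches hold 30 bases around each match. They lie at chr19:34640729-34640888 (plus strand) for Ifit1, chr19:34583363-34583392 and chr19:34583397-34583426 (plus) for Ifit3, chr5:120777660-120777819 (minus) for Oas3 and chr4:156200819-156200978 (minus) for Isg15. Those of Irgm1, Gbp2, Mndal and Isg20 lie at chr11:48871421-48871580 (minus), chr3:142620503-142620662 (plus), chr1:173880204-173880233 (minus) and chr7:78913264-78913423 (plus). Capitals mark the response element, and in Isg20 the gamma-activated site.
Ifit1: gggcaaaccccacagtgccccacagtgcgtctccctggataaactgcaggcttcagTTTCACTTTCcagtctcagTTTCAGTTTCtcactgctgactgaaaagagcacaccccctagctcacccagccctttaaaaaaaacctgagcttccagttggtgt
Ifit3, upstream match: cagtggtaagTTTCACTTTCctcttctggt
Ifit3, downstream match: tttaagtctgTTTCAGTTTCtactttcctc
Oas3: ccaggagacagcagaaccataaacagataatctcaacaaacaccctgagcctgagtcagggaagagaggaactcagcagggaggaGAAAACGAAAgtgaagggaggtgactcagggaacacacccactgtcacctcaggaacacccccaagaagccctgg
Isg15: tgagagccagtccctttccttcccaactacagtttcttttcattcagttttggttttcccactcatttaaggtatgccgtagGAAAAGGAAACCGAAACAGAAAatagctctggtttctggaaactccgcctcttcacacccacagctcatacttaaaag
Irgm1: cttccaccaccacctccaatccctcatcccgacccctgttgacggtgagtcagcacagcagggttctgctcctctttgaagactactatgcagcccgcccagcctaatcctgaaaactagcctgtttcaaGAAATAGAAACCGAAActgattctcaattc
Gbp2: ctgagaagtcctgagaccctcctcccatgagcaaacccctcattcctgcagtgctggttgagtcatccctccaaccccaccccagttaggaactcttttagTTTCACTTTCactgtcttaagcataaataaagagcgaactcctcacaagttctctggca
Mndal: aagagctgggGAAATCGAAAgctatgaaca
Isg20: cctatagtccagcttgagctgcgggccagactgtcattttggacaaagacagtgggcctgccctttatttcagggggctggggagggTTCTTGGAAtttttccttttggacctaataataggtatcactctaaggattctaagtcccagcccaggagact

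The members did not move as a block between the cell samples. Of the 43 measured, 3 were at least 4-fold higher in the CD45-negative array, namely Isg20, Oas3 and Oasl2, against 8.31% of all 11793 measured genes. A further 11 were at least 4-fold lower, against 16.8% of all measured genes, and they were Mndal, Ifi27l2a, Zbp1, Ifit3, Mx1, Gbp2, Ifitm1, Gbp3, Ifngr1, Iigp1 and Ifit2. These are 6.98% of the members, close to the background, and 25.6%, above it. Of the 11793 genes, 10204 were above the level in the CD45-positive array, against all 43 members. The rest could not be counted as lower, so the shares of lower genes have unlike bases. The other 29 members lay within 4-fold, and 18 of these within 2-fold. The median log2 difference, CD45-negative minus CD45-positive, was -0.03 over the members and -0.26 over all measured genes. Quantile normalization moved the median of all genes to 0.01 and that of the members to -0.15, so the order of these medians depends on the scaling. All 43 exceeded the detection level in the CD45-positive array and 38 did so in both arrays, while Mx1, Mx2, Zbp1, Ifi204 and Ifi203 were under it in the CD45-negative array. For counts, medians and plots, a difference of such a gene was taken against the level of 101.1. The fold bounds of single genes in the text, written as at least, were taken against 127.3, the stricter level set from the CD45-negative array alone.

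**Figure D1:**
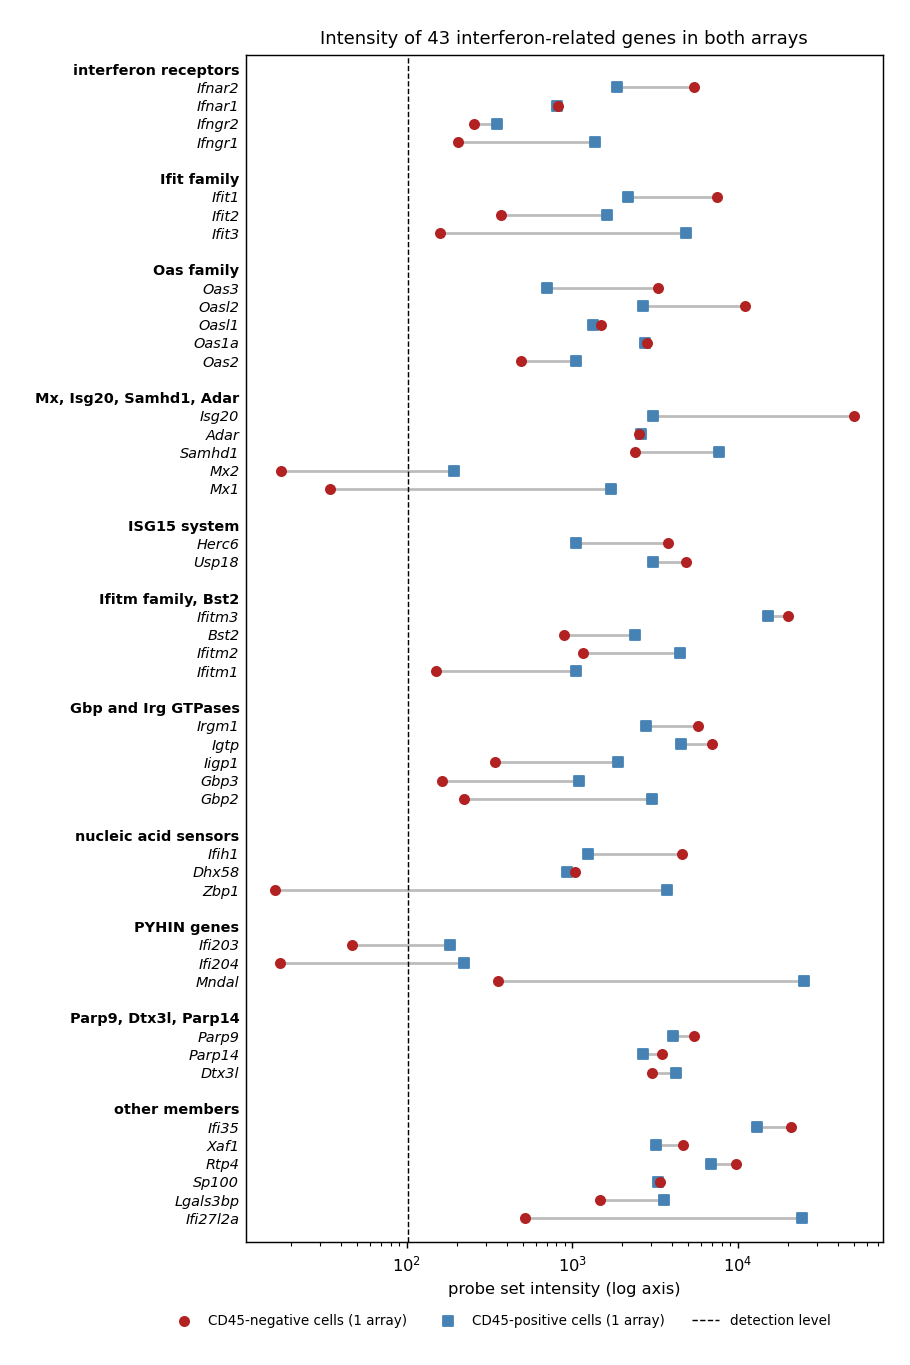
Probe set intensity on a log axis of the 43 members with a probe set of their own, grouped by role, in CD45-negative cells (circles) and CD45-positive cells (squares), 1 array each, with the detection level of 101.1 as a dashed line. Families such as Ifit, Oas and the GTPases hold genes brighter in one array beside genes brighter in the other, and only 5 circles lie under the level.

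The receptor subunits differed from each other in direction. Ifnar2, the type I receptor chain that binds interferon tightly, stood at 5397 in the CD45-negative and 1857 in the CD45-positive array, a difference of 1.54, and its 3 probe sets gave 0.91 to 1.73. Ifnar1, its partner chain, stood at 819 and 805, nearly level, although its other probe set gave -1.11. Ifngr1, the ligand-binding chain for interferon gamma, stood at 204.5 against 1368 and was 6.69-fold lower in the CD45-negative array. Ifngr2, the chain that brings JAK2 to that receptor, stood at 254 against 351, a difference of -0.47 that turned to 0.29 after quantile normalization. Ifnar2 was thus brighter in the CD45-negative array, Ifnar1 was level or dimmer depending on the probe set, and the interferon gamma chain Ifngr1 was dimmer. Ifnar2, Ifnar1 and Ifngr2 lie close together in the RefSeq gene order.

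The Ifit genes, which encode proteins that bind viral RNA and stop its translation, split most widely among gene neighbours. Ifit1 stood at 7478 in the CD45-negative array against 2182, a 3.43-fold higher value. Ifit3 stood at 158 against 4887 and was 30.9-fold lower, while Ifit2 stood at 368 against 1624 and was 4.41-fold lower. After quantile normalization the difference of Ifit2 was -1.72, under the 4-fold threshold. Ifit2 and Ifit3 are direct neighbours among protein-coding genes and Ifit1 follows 3 genes further on, yet the differences of Ifit1 and Ifit3 lay 6.73 apart on the log2 scale. Both promoters carry 2 matches to the response element, at 104 and 85 bases before the start in Ifit1 and at 156 and 122 in Ifit3. Each Ifit gene was read by a single probe set, so none of the 3 values has a second reading.

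The Oas genes encode sensors of double-stranded RNA, and 4 of the 5 measured were level or brighter in the CD45-negative array. Oas3 stood at 3312 against 701, 4.73-fold higher. Oasl2, a relative with ubiquitin-like domains, stood at 10990 against 2657, 4.14-fold higher, and at 1.73 on the log2 scale after quantile normalization, under the threshold. Oasl1, its direct neighbour, stood at 1491 against 1330. Oas1a stood at 2807 against 2745, and its small difference of 0.03 changed sign after quantile normalization. Oas2, the direct neighbour of Oas3, stood at 487 against 1057, a difference of -1.12, so the neighbours Oas2 and Oas3 went opposite ways by 3.36.

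Isg20 had the largest difference in the direction of the CD45-negative array. This exonuclease, which degrades single-stranded RNA, stood at 50102 against 3049, 16.4-fold higher. Its log2 difference lay between 3.79 and 4.08 under all settings tried. It was read by 1 probe set, and only the 2 scalings moved its value. Adar, which edits double-stranded RNA, stood at 2542 against 2603, and its 3 probe sets gave -0.12 to 0.48. Samhd1, which depletes the nucleotides that retroviruses need, stood at 2398 against 7700, a difference of -1.68. The 3 of its 5 probe sets above the level in both arrays gave -2.45 to -1.68, and the other 2 were under it in the CD45-negative array. The mean over all 5 was -2.71, past the threshold, but it takes those 2 at values under the level. The Mx genes, which encode antiviral GTPases and are defective in most inbred laboratory mice, were under the level in the CD45-negative array. Mx1 stood at 34.2 against 1722.5, at least 13.5-fold lower. Mx2 stood at 17.4 against 191.6, at least 1.51-fold lower, a bound that leaves its size unknown.

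The ISG15 system tags proteins with the ubiquitin-like protein ISG15, and its measured parts were brighter in the CD45-negative array. Herc6, the mouse ligase for ISG15, stood at 3780 against 1045, a difference of 1.86, and its 4 probe sets gave 1.56 to 1.86. Usp18, which removes ISG15 and damps IFNAR2 signalling, stood at 4891 against 3078.5, a difference of 0.67. Outside the members, Ube2l6, the conjugating enzyme for ISG15, stood at 12682 against 266 and was 47.7-fold higher. Uba7, its activating enzyme, stood at 6424 against 2480, and its 3 probe sets gave 1.37 to 2.47. Isg15 itself was read only by a probe set that also carries the symbol Gm9706, with 32842 against 1965, a 16.7-fold difference that cannot be assigned to Isg15 alone. Of the relatives Herc3 and Herc4, Herc4 stood at 3234 against 4332, with its 4 probe sets from -1.60 to 1.99, and Herc3 at 65.1, under the level, against 313. Activating enzyme, conjugating enzyme and ligase were therefore all brighter in the CD45-negative array. Ube2l6 is also known from maturing red cells, and whether its value has to do with interferon was not tested.

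The membrane proteins that hinder virus entry or release were level or dimmer. Ifitm3, which blocks fusion in endosomes, was bright in both arrays, at 20084 and 15150, and its difference of 0.41 became -0.25 after quantile normalization. Its direct neighbour Ifitm1 stood at 150 against 1051 and was 7.01-fold lower. Ifitm2, next to Ifitm1 on the other side, stood at 1154.5 against 4456, a difference of -1.95 that lay just short of the threshold and reached -2.01 after quantile normalization. The differences of the neighbours Ifitm1 and Ifitm3 were 3.22 apart. Bst2, or tetherin, which holds budding virus at the cell surface, stood at 891 against 2394, a difference of -1.43. Bst2 is also a marker of plasmacytoid dendritic cells. The defining marker Siglech of those cells was under the level in the CD45-negative array, at 22.8 against 530.7, and 4 of 7 measured markers on that list were at least 4-fold lower.

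The GTPases that interferon gamma induces against intracellular microbes also split. Gbp2 stood at 222 in the CD45-negative array against 3013.5 and was 13.6-fold lower, with -4.46 from its other probe set. Gbp3, nearby in the same gene cluster, stood at 162 against 1100.0 and was 6.78-fold lower. Iigp1 stood at 343 against 1893, 5.52-fold lower, and its other probe set gave -2.76. In contrast, the related genes Irgm1 and Igtp were brighter in the CD45-negative array. Irgm1, which regulates the other Irg proteins, stood at 5744 against 2799, a difference of 1.04. Igtp stood at 7022.5 against 4548, a difference of 0.63. After quantile normalization the differences of Irgm1 and Igtp were 0.78 and 0.22, and each gene was read by 1 probe set. Irgm1 and Gbp2, with differences of opposite sign, both carry the response element, at 30 and 24 bases before the start in Irgm1 and at 59 in Gbp2.

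The nucleic acid sensors and PYHIN genes among the members differed in direction. Ifih1, the long RNA sensor MDA5, stood at 4587 against 1237, a difference of 1.89. Dhx58, its helper LGP2, stood at 1032 against 926.5, and the mean of its probe sets gave -0.07. Zbp1, the sensor of Z-form nucleic acid that starts necroptosis, stood at 15.9 against 3743, at least 29.4-fold lower. The brighter of its 2 probe sets is given, and the other also lay under the level in the CD45-negative array. Mndal, a nuclear protein of the PYHIN family, stood at 357 against 24987 and was 69.9-fold lower by one probe set and -6.09 on the log2 scale by the other. Its near neighbours Ifi204 and Ifi203 stood at 17.1 against 222.6 and 46.5 against 182.7, at least 1.75-fold and 1.44-fold lower. Probe sets shared between these related genes were not counted. Of the 3 that name Ifi203 with its relatives, one was above the level in both arrays, at 164.8 against 10252, a difference of -5.96. The others stood at 36.2 against 3757 and 2.6 against 345.5, at least 29.5-fold and 2.71-fold lower. That shared by Mndal, Ifi204 and their neighbours stood at 60.0 against 7394, at least 58.1-fold lower. The PYHIN genes share sequence, so the values of single genes among them are uncertain.

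Parp9, Dtx3l and Parp14, direct neighbours that act in ADP-ribosylation, were nearly level. Parp9 stood at 5464 against 4069, Dtx3l at 3018 against 4200 and Parp14 at 3456 against 2675, with differences of 0.43, -0.48 and 0.37. Among the remaining genes, Ifi27l2a was the exception. This gene of a small interferon-induced protein stood at 517 against 24518 and was 47.4-fold lower in the CD45-negative array. Ifi35 stood at 20813 against 13085, a difference of 0.67 that fell to 0.03 after quantile normalization. Its 3 probe sets gave 0.34 to 0.82. Rtp4, a chaperone of receptors, stood at 9767 against 6922, and Xaf1, a promoter of apoptosis, at 4631 against 3195. The sign of Rtp4 changed after quantile normalization, and that of Xaf1 with the mean of its probe sets, to -0.42. Sp100, a component of nuclear bodies, stood at 3398 against 3269. Lgals3bp, a secreted glycoprotein that binds galectins, stood at 1469 against 3596, a difference of -1.29.

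**Figure D2:**
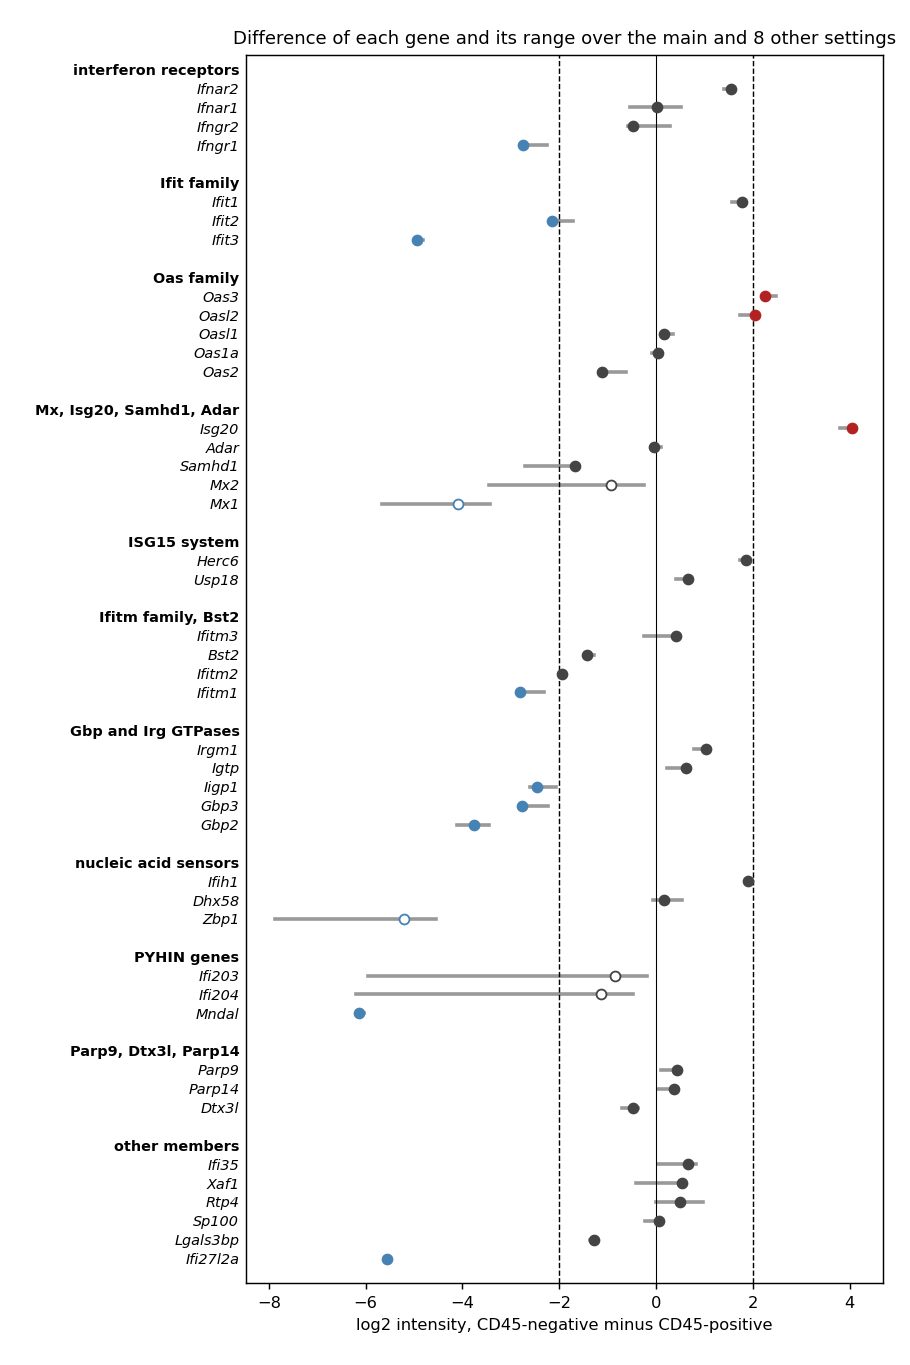
Log2 intensity of CD45-negative minus CD45-positive cells for each of the 43 members. Points are the values as reported, grey lines span the main and 8 other settings, dashed lines mark 4-fold, and open points are lower bounds against the level of 101.1. Isg20, at 4.04, lies apart on the right, and Mndal, Ifi27l2a, Zbp1 and Ifit3 lie furthest to the left.

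Markers of other cells differed between the samples beside these genes. The 54 white cell markers with a probe set had a summed intensity of 16868 in the CD45-negative and 592620 in the CD45-positive array, 2.85% of it, with 37 above the level and 0 at zero in the CD45-negative array. For the 9 general white cell markers above the level in both arrays, the CD45-negative intensity ran from 1.31% to 7.91% of the CD45-positive one. Of the 38 members above the level in both arrays, Ifit3, Gbp2, Mndal and Ifi27l2a lay inside that range and the other 34 above it. The 5 members under the level have no place in that range. Markers of single white cell types spread more widely. Over all 54 markers, some under the level in the CD45-negative array, the share ran from 0.19% to 107%, with a median of 2.83%. A member above the range of the 9 can thus still lie within that of the 54. In the other direction, all 7 megakaryocyte and platelet markers were at least 4-fold higher in the CD45-negative array, with summed intensities of 35475.5 and 1717. The 10 red cell markers summed to 482232 and 12616. The part of each cell type in the member values was not tested. In such sorted bulk samples, fewer cells of a type and less RNA per cell cannot be told apart.

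**Figure D3:**
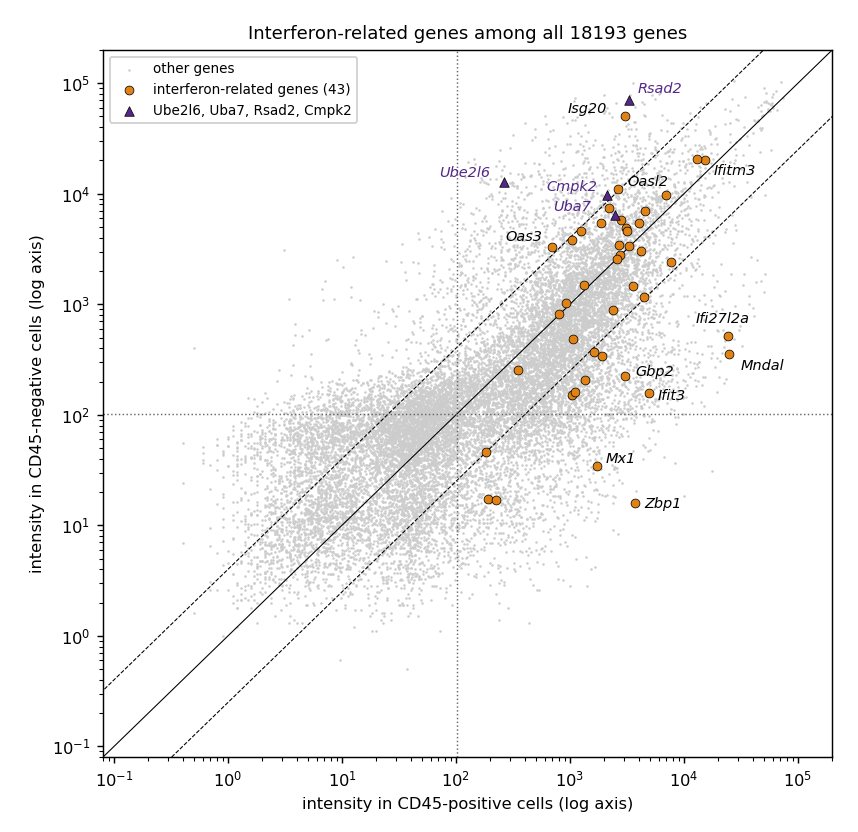
Intensity in CD45-negative against CD45-positive cells, both on log axes, for all 18193 genes (grey), the 43 members (circles) and Ube2l6, Uba7, Rsad2 and Cmpk2 (triangles). The solid line marks equality, dashed lines 4-fold and dotted lines the detection level. Most members lie between the dashed lines, Isg20, Rsad2 and Ube2l6 lie far above them, and Mndal, Ifi27l2a and Zbp1 far below.

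The comparison was extended to further genes of the pathway from 7 lists. Of 80 measured, 29 were at least 4-fold lower (28 with the level of each array by itself), beside 16.8% of all measured genes, and 3 at least 4-fold higher, beside 8.31%. The 3 were Ube2l6, Rsad2 and Cmpk2. Rsad2, which makes the antiviral nucleotide ddhCTP, stood at 70516 against 3275.5 (21.5-fold), and Cmpk2, its neighbour and supplier of substrate, at 9724 against 2125 (4.58-fold). The lists themselves had median differences of -0.78 for further interferon-stimulated genes (33 measured), -3.69 for interferon regulatory factors (7) and -0.70 for signalling (10). Irf9 was counted in the signalling list and not among the interferon regulatory factors. For nucleic acid sensing (11) the median was -0.89, for antigen processing (12) -2.48 and for ISG15 conjugation (4) 0.48.

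Interferon genes themselves gave little signal in the CD45-negative array. Of 15 listed, only 7 had a probe set of their own, and the others were not read. Ifng, made by T and natural killer cells, stood at 2.8 in the CD45-negative and 1413 in the CD45-positive array, at least 11.1-fold lower. Ifna1 and Ifna5 stood at 109.2 and 114.3 in the CD45-negative array, close to the level, and under it in the other array. Ifnb1, Ifna2, Ifna4 and Ifna11 were under the level in both arrays. No level of an interferon gene in the CD45-negative array exceeded 127.3, the level of that array alone.

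Of 10 measured genes that carry or check the receptor signal, 9 were above the level in the CD45-negative array. Jak1 stood at 7111 against 16984, Jak2 at 2450 against 2745, Stat2 at 402 against 706 and Irf9 at 4584 against 2695. Tyk2, the kinase on IFNAR1, was 6.01-fold lower in the CD45-negative array, but its second probe set gave 0.77. Socs3, a feedback inhibitor, was 5.55-fold lower, and its probe sets above the level gave -2.47 to -1.62. Irf9 is itself an interferon regulatory factor but was listed here under signalling. Of the 7 other measured factors of that family, only Irf7 was higher in the CD45-negative array, at 9110 against 3799. Irf7 amplifies type I interferon responses. Irf8 (45.1-fold), Irf4 (at least 18.7-fold), Irf5 (15.3-fold), Irf1 (12.9-fold) and Irf2 (4.85-fold) were lower. The second probe set of Irf5 gave 0.25, and that of Irf4 gave -1.23, short of 4-fold.

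The other genes at least 4-fold lower were sensors, genes of antigen processing and further stimulated genes. Sting1, the adaptor for cytoplasmic DNA sensing, was at least 18.8-fold lower and Tlr7, a sensor of single-stranded RNA, at least 11.99-fold, while Cgas, the enzyme that feeds STING, was brighter in the CD45-negative array at 833 against 341. Ddx58, the RNA sensor RIG-I, stood at 411 against 1901, 4.63-fold lower, opposite in direction to Ifih1. Ikbke was 8.37-fold lower. Aim2, a sensor of cytoplasmic DNA, was at least 3.21-fold lower, so it passed 4-fold against the level of 101.1 but not against 127.3. Psmb8, Psmb10, Nlrc5, Psmb9, Tap2 and Tap1 were 25.9-fold to 4.90-fold lower and Ciita at least 10.2-fold, while B2m stood at 55566.5 against 47882. Of the further stimulated genes, Slfn2, Epsti1, Slfn8, Gbp6, Trim14, Tor3a, Ly6e and Trim30a were 45.4-fold to 4.37-fold lower and Slfn1 at least 25.2-fold. The 4 probe sets of Epsti1 disagreed, from -4.97 to 0.87. In contrast, Parp12 stood at 2198 against 803, and Irgm2, a relative of Irgm1, at 1196 against 691.

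**Figure D4:**
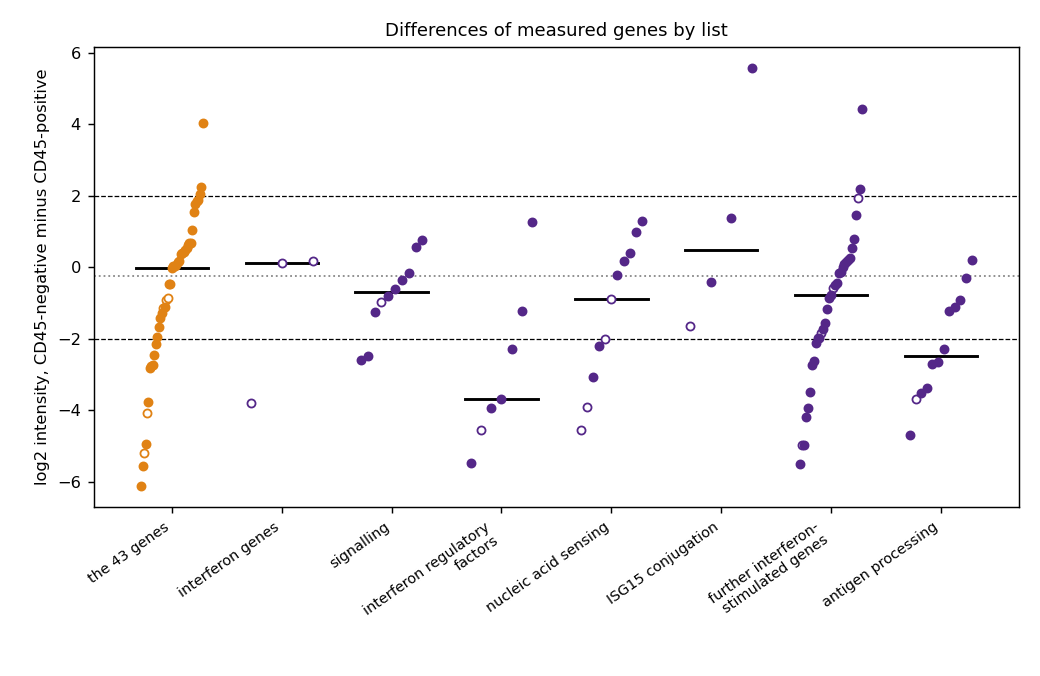
Log2 intensity of CD45-negative minus CD45-positive cells for measured genes of the 43 members and 7 further lists, each point 1 gene in rising order, open points lower bounds against the level of 101.1, bars list medians. The dotted line is the median of all measured genes (-0.26) and dashed lines mark 4-fold. The interferon regulatory factors and antigen processing genes lie mostly low, and Ube2l6 and Rsad2 are the highest points of their lists.

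Agreement between probe sets gives the only repeated measure. Over 16 members with 2 or more probe sets above the level in both arrays, the pooled SD of the difference was 0.47, against 0.66 over 3608 genes. It is not replicate error. Signs differed between probe sets for Adar, Dhx58, Ifnar1, Parp14, Sp100 and Xaf1, for each of which the reported difference was under 2-fold. The 1-array design means that each value describes these samples only.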

How the data were processed

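RNA of each sorted sample was hybridised to 1 Affymetrix 3' expression array, after amplification with biotin label from total RNA per the labels' protocols. The deposited values are linear intensities, 1 for each probe set on each array. The submitters' processing notes name GCRMA and Partek 6.6, with no role for either. The deposited intensities had 2% trimmed means of 494 and 497, and which step made them is not settled. No detection call or saturation flag was used here.

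Of 45037 probe sets, the platform annotation gave 34945 a single gene symbol, 932 several and 9160 none. All 69 probe sets of the members matched RefSeq by Entrez identifier. Intensities were converted to log2 without pseudocount or further normalization, and values at or under the detection level of 101.1 were raised to it. The level used receptor genes taken as silent in spleen. Its percentiles for each array alone were 127.3 (CD45-negative) and 73.5 (CD45-positive). Differences of 4-fold (2 on the log2 scale) or more were counted. No test was possible with 1 array per group, and the number of arrays limits the precision. The members, lists and thresholds were chosen with earlier results of these data known. All members are given, and of the further lists the genes past 4-fold and all measured genes of lists with few members. Other genes named were chosen after their values were seen. Alternatives were another probe set rule, other detection levels, 2 scalings, other probe set choices and a 2-fold threshold. The computation was tested on simulated data. Scripts ran in Python 3.11.15 with pandas 2.3.3, numpy 2.4.6, matplotlib 3.10.9 and scipy 1.17.1.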

Additional observations from a re-analysis of the deposited data

Results flagged for a closer look

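The probe set of Isg15 that also names Gm9706 took no part in the comparison, since it names several genes. Its intensity was 32841.8 in CD45-negative cells and 1965 in the CD45-positive control, a log2 difference of 4.06. It was taken up here because a signal above the control lay in data that the comparison left out.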

How the results depend on the processing

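Of the 43 measured members, 36 kept their side of the 4-fold threshold under all 8 other settings at that threshold. Only the 2 scalings could move a gene far above the level with 1 probe set, so for such genes this was largely fixed in advance. Among the 36 were 10 of the 11 lower and 2 of the 3 higher genes, and no member past the threshold reversed. Ifit2 and Oasl2 fell short after quantile normalization (-1.72 and 1.73), which put Ifitm2 past it (-2.01). The mean of probe sets put Samhd1 past it (-2.71), with 2 of 5 probe sets taken at values under the level. Mx2 and Ifi204 passed it with no detection level (-3.46 and -3.70), and Ifi204 and Ifi203 with shared probe sets (-6.19, a bound, and -5.96). Shared probe sets also brought in Isg15, read with Gm9706, on the higher side. Of 44 members measured in that setting, 4 (9.09%) were higher and 13 (29.5%) lower, beside 8.43% and 16.9% of all genes. Signs changed under scaling for 6 members within 2-fold, namely Adar, Ifitm3, Ifngr2, Oas1a, Rtp4 and Sp100. With a 2-fold threshold, 17 members were lower and 8 higher, 3922 and 1976 of all genes were lower and higher, and 8 further pathway genes were higher. With no detection level, 3293 and 2885 of all genes were lower and higher, and 5 further pathway genes were higher. With the level at the 99th percentile, 160.4, the log2 bounds were -3.43 for Mx1, -4.54 for Zbp1, -0.26 for Mx2, -0.47 for Ifi204 and -0.19 for Ifi203. No paired analysis was possible because each group has 1 array. Dim genes have only bounds, and no error between animals could be estimated.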
